A study of Capra hircus with 198 samples.

Results

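A set of 10 protein-coding genes that mark the glands and surface lining of the acid-secreting stomach were followed through an expression atlas of the goat. The genes were ATP4A, ATP4B, GIF, PGC, CYM, MUC5AC, TFF1, GKN1, GKN2 and MUC6. They were listed by symbol with earlier results of these data known, though not by a threshold on these data. Of the 10, 10 had a row among the 39734 features of the count table. The atlas holds total RNA sequencing of 33 tissues from 6 adult female Murciano-Granadina goats, a dairy breed, with 1 library per goat and tissue. Goats 54, 64 and 73 are labelled dry, and the labels give lactation for goats 2, 3 and 6. RNA was extracted with the RiboPure kit and the libraries were made with a strand-specific VAHTS kit. No treatment, genotype or exact age is given for any goat, and tissue and lactation state are the only factors. The tissues compared here are the abomasum (6 libraries), the duodenum (6 libraries) and the forestomach, which is the rumen, reticulum and omasum (18 libraries).

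Of the stomach compartments of a ruminant only the last, the abomasum, carries gastric glands, while the forestomach is lined by a stratified squamous epithelium and ferments feed. In a gastric gland, parietal cells pump acid and supply the vitamin B12 carrier in many species, chief cells store zymogens of aspartic proteases, and surface and pit cells cover the wall with mucus, trefoil peptides and gastrokines. Mucous neck and deep gland cells make a different mucin, MUC6, which is also the product of the Brunner's glands that open into the first stretch of the duodenum. Chymosin, encoded by CYM, is the milk-clotting protease for which the abomasum of the suckling calf or kid is known.

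Levels are given as CPM, the counts of a gene per 1000000 counts of the library. Total counts ran from 3.68 to 6.05 M in the 30 stomach and duodenum libraries, and in them 3 counts, the limit that a count of 0 allows, came to 0.496 to 0.816 CPM. These floors and the intervals below cover counting error only. Levels are compared between libraries and not between genes, because no exon lengths were used. Levels are of bulk tissue, in which fewer cells of a type and less RNA per cell cannot be told apart.

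The abomasum and duodenum libraries of goat 2 went against their labels. In the library labelled abomasum of goat 2, PGC, CYM, ATP4B, TFF1, GKN1 and GKN2 were at 0 counts and MUC6 was at 235 CPM. In the library labelled duodenum of the same goat, all 9 genes other than MUC6 stood between 75.6 and 882 CPM, and MUC6 was at 20.5 CPM. Over 19651 features that are neither lncRNAs nor in any gene list used here, the library labelled duodenum had a rank correlation of 0.904 with the mean abomasum profile of the other goats and 0.867 with their mean duodenum profile. The library labelled abomasum was nearest to the duodenum, but only at 0.636, with 0.625 for the pineal gland and 0.58 for the abomasum. The other abomasum libraries reached 0.855 to 0.895 with their own tissue.

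The library labelled abomasum of goat 2 also lacked general signs of a glandular wall. Its 7 simple epithelium markers summed to 8.28 CPM against 197 to 374 CPM in the other 5 abomasum libraries, and its immune cell markers to 8.63 CPM against 170 to 1175 CPM. At least 10 counts were reached by 5805 of its features other than lncRNAs, against 7946 to 9473 in the others, at a total of 4.40 M counts. Such low numbers were not particular to it. The frontal neocortex of goat 2 had 5647 at 4.62 M counts and the esophagus of goat 3 had 6077 at 3.75 M counts. Labels were kept as deposited, no library was moved between groups, and the cause was not tested. The tests on the 10 genes are given with all 6 goats and without goat 2, and a value that leaves out goat 2 is marked so.

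**Figure D1:**
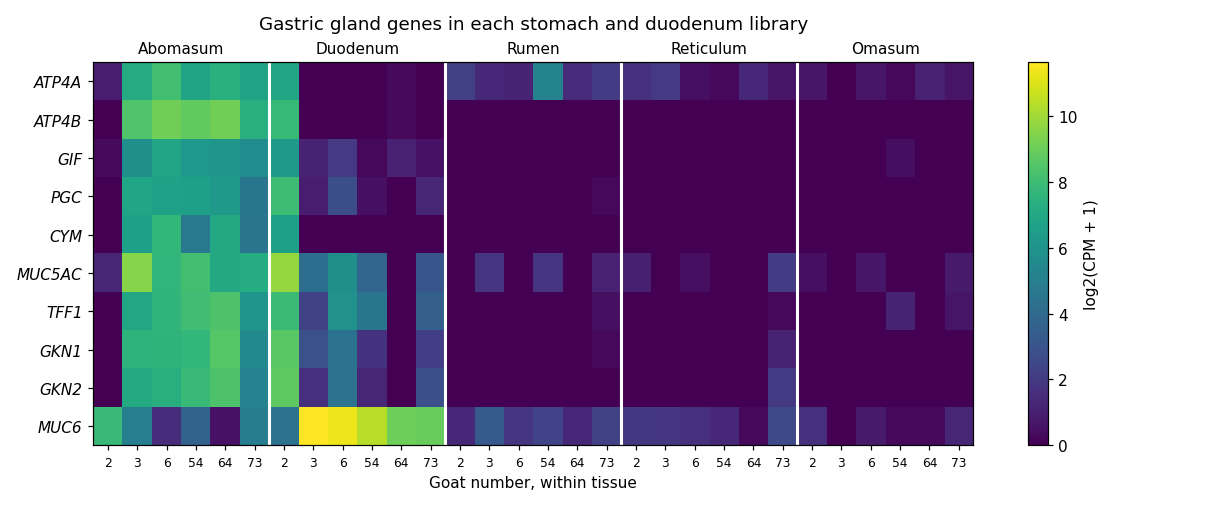
Heat map of the 10 genes (rows) in the 30 libraries of the abomasum, duodenum, rumen, reticulum and omasum (columns, by goat number within tissue), coloured by log2(CPM + 1). The bright block lies in the abomasum of goats 3, 6, 54, 64 and 73 and in the library labelled duodenum of goat 2, and MUC6 is brightest in the duodenum of the other 5 goats.

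The acid pump genes were high in 5 of 6 abomasum libraries and at or next to 0 in 5 of 6 duodenum libraries. ATP4A, the catalytic subunit of the gastric proton pump, stood at 142 CPM in goat 3, 278 CPM in goat 6, 111 CPM in goat 54, 167 CPM in goat 64 and 105 CPM in goat 73, and at 0.91 CPM in the library labelled abomasum of goat 2. In the duodenum it was at 0 in goats 3, 6, 54 and 73, at 0.22 CPM in goat 64, and at 118 CPM in the library labelled duodenum of goat 2. Without goat 2 the abomasum mean was 161 ± 70.4 CPM (SD, n = 5) and the duodenum held 1 count in all, a ratio of pooled counts of 3715 with an exact 95% interval from 666 to 146800. The ratio over all 6 goats was 7.62.

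ATP4B, the glycosylated subunit that carries the pump to the membrane, had the same pattern. Its abomasum levels were 340, 550, 449, 547 and 154 CPM in goats 3, 6, 54, 64 and 73, and 0 in the library labelled abomasum of goat 2. The duodenum held 1 count over goats 3, 6, 54, 64 and 73, whereas the library labelled duodenum of goat 2 held 223 CPM. Without goat 2 the abomasum mean was 408 ± 166 CPM (SD, n = 5), and the ratio over the duodenum was 9498 with an exact 95% interval from 1704 to 375200, against 10.4 with all 6 goats.

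GIF, the intrinsic factor that binds vitamin B12, stood at 54.5, 119, 73.5, 71.2 and 48.7 CPM in the abomasum of goats 3, 6, 54, 64 and 73, and at 0.23 CPM in the library labelled abomasum of goat 2. In contrast to the pump genes it was above 0 in every duodenum library, with 1.25, 2.84, 0.19, 1.10 and 0.47 CPM in goats 3, 6, 54, 64 and 73 and 75.6 CPM in the library labelled duodenum of goat 2. Only goats 3, 6 and 64 were above the floor of 3 counts among those 5 duodenum libraries. The means were 73.3 ± 27.4 CPM in the abomasum and 1.17 ± 1.03 CPM in the duodenum (SD, n = 5 each) once goat 2 was left out.

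The chief cell genes divided in the duodenum of goats 3, 6, 54, 64 and 73, where PGC had counts in 4 of 5 libraries and CYM in 0 of 5. PGC, the zymogen of gastricsin, stood at 119, 99.3, 92.6, 77.3 and 22.3 CPM in the abomasum of goats 3, 6, 54, 64 and 73 and at 0 in the library labelled abomasum of goat 2. Its duodenum levels were 0.83, 5.92, 0.38, 0 and 1.40 CPM in goats 3, 6, 54, 64 and 73, and 258 CPM in the library labelled duodenum of goat 2. The 2 groups did not overlap without goat 2, at 82.1 ± 36.6 against 1.71 ± 2.41 CPM (SD, n = 5 each).

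CYM was expressed in the abomasum of adult goats at 95.1, 210, 25.1, 129 and 21.2 CPM in goats 3, 6, 54, 64 and 73. It was at 0 counts in the library labelled abomasum of goat 2 and in the duodenum of goats 3, 6, 54, 64 and 73, and at 97.3 CPM in the library labelled duodenum of goat 2. Against a floor of 3 counts over the 5 duodenum libraries, the abomasum without goat 2 was at least 747-fold higher. The ratio over all 6 goats was 5.59. PGC and CYM belong to the pepsin family of aspartic proteases, whose related members may share reads, so the split of counts among them is uncertain.

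The surface mucous cell genes were high in the abomasum and lower but present in the duodenum. MUC5AC, the main mucin of the gastric surface, stood at 723, 199, 277, 129 and 146 CPM in the abomasum of goats 3, 6, 54, 64 and 73 and at 17.3, 54, 12.7, 0 and 7.70 CPM in their duodenum. The libraries of goat 2 held 1.36 CPM under the abomasum label and 882 CPM under the duodenum label. Every abomasum library other than that of goat 2 was above every duodenum library other than that of goat 2.

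TFF1, the trefoil peptide secreted with MUC5AC, stood at 121, 195, 270, 336 and 67.0 CPM in the abomasum of goats 3, 6, 54, 64 and 73. In the duodenum of the same goats it stood at 3.96, 58.8, 21.9, 0 and 10.5 CPM. The lowest abomasum library, from goat 73, was only just above the highest duodenum library, from goat 6. Goat 2 had 0 counts in the library labelled abomasum and 244 CPM in the library labelled duodenum.

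The gastrokines GKN1 and GKN2 are small secreted proteins of the surface cells whose genes lie next to each other in the RefSeq annotation. GKN1 stood at 184, 188, 208, 373 and 44.9 CPM in the abomasum and at 6.46, 19.7, 2.30, 0 and 3.5 CPM in the duodenum of goats 3, 6, 54, 64 and 73. GKN2 stood at 138, 159, 230, 330 and 34.6 CPM in the abomasum and at 2.08, 20.4, 1.34, 0 and 6.07 CPM in the duodenum of those goats. Both were at 0 counts in the library labelled abomasum of goat 2, and at 404 CPM and 427 CPM in its library labelled duodenum.

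The duodenal levels of these 4 genes were ordered alike at both ends among the 5 goats other than goat 2. In these 5 duodenum libraries, MUC5AC, TFF1, GKN1 and GKN2 were each highest in goat 6, where PGC and GIF were highest too, and each was at 0 counts in the duodenum of goat 64. With goat 2 left out, the duodenum means were 18.3 ± 21.0 CPM for MUC5AC, 19.0 ± 23.7 CPM for TFF1, 6.39 ± 7.78 CPM for GKN1 and 5.97 ± 8.36 CPM for GKN2 (SD, n = 5). The corresponding abomasum means were 295 ± 246, 197.9 ± 109, 200 ± 117 and 179 ± 110 CPM.

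MUC6, the gel-forming mucin of neck and deep glands, ran the other way and was far higher in the duodenum. Its duodenum levels were 3172, 2600, 1327, 536 and 484 CPM in goats 3, 6, 54, 64 and 73, and its abomasum levels were 31.6, 1.77, 11.7, 0.49 and 29.4 CPM. The libraries of goat 2 held 235 CPM under the abomasum label and 20.5 CPM under the duodenum label. Without goat 2 the means were 15.0 ± 14.8 CPM in the abomasum and 1624 ± 1217 CPM in the duodenum (SD, n = 5 each), and the highest abomasum library was well below the lowest duodenum library.

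TFF2, the trefoil peptide that is stored and secreted with MUC6, is no member of the set but was read beside it. It stood at 119, 15.2, 20.9, 16.5 and 2.99 CPM in the abomasum and at 230, 211, 238, 254 and 74.0 CPM in the duodenum of goats 3, 6, 54, 64 and 73. Its groups overlapped, since the abomasum of goat 3 was above the duodenum of goat 73. The libraries of goat 2 held 0 counts of TFF2 under the abomasum label and 54.9 CPM under the duodenum label.

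**Figure D2:**
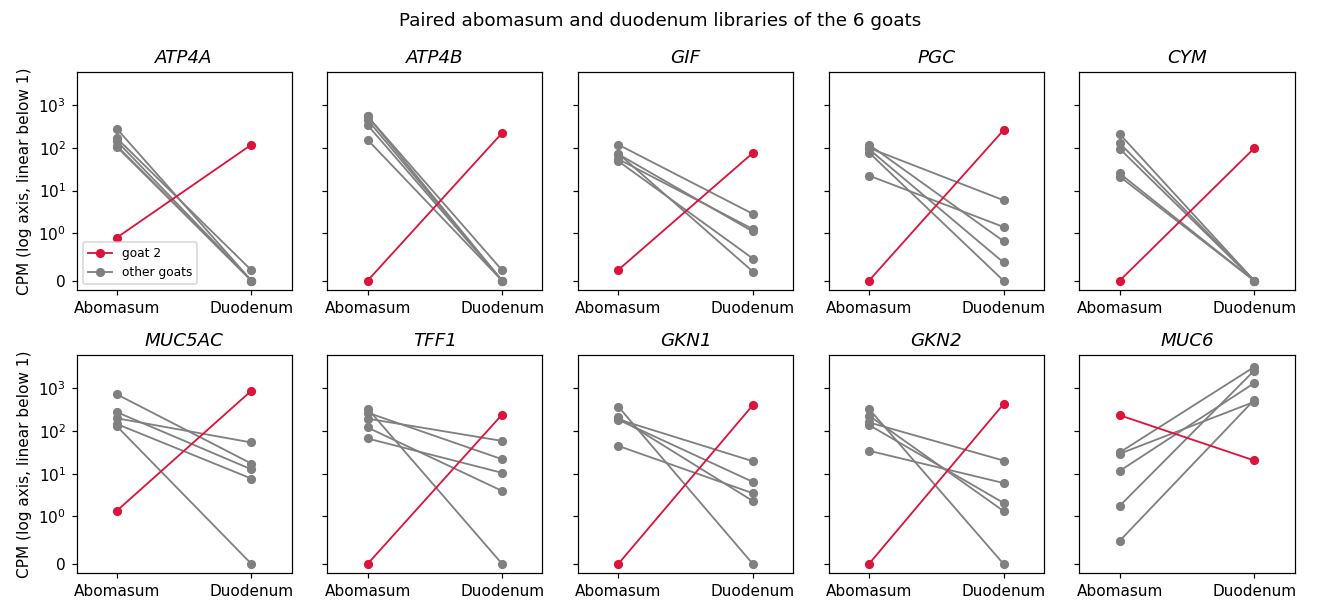
Each panel shows 1 gene in the abomasum (left) and duodenum (right) of the 6 goats as CPM on a log axis that is linear below 1 CPM, with a line joining the libraries of a goat. The 5 grey lines of goats 3, 6, 54, 64 and 73 fall for 9 genes and rise for MUC6, and the red line of goat 2 runs the other way in all 10 panels.

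Whether the abomasum and the duodenum differed was tested by edgeR's quasi-likelihood test over all features that passed its filter, with Benjamini-Hochberg adjustment at 0.05. With all 6 goats, 0 of the 10 genes were called, where 0.0362% of 16576 features were called in either direction. The lowest adjusted p among the 10 was 0.225 for MUC6, with a log2 fold change of -4.65 (SE 1.24). With the goat as a block, 1 feature was called in place of 6 (0.00603%), and again 0 of the 10 genes. At an unadjusted p under 0.05, 1282 features passed in the fit with no block, and of the 10 genes only MUC6. DESeq2 called MUC6 at an adjusted p of 0.0112 and 0 of the other 9.

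Without goat 2, all 10 genes passed the filter and all 10 were called, 9 higher and MUC6 lower in the abomasum. The background was 3.71% of 16749 features called higher and 3.99% called lower. The 9 genes called higher passed the filter only with their abomasum counts, since each had too few duodenum libraries at the level it asks for. ATP4A, ATP4B and CYM had 1, 1 and 0 counts in the duodenum. MUC6 passed only with its duodenum counts. The calls of all 10 genes are therefore not independent of passing it. The CPM ranges of all 10 genes did not overlap without goat 2, beside a background of 2.03% of features with the abomasum above and 7.51% with the abomasum below. With goat 2, the ranges of all 10 overlapped, beside a background of 0.0241% with the abomasum above and 1.19% below. The contrast between these settings rests on leaving out 1 goat in 6, and leaving out any other goat gave 0 edgeR calls among all features, with 835 to 903 at an unadjusted p under 0.05.

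The largest fitted difference with measurable levels on both sides was that of MUC6, at a log2 fold change of -6.50 (SE 0.83, edgeR adjusted p = 4.71e-05). GIF differed by 6.26 (SE 0.42, adjusted p = 2.99e-08) and PGC by 5.94 (SE 0.63, adjusted p = 7.24e-06) on the same scale. GKN1 and GKN2 differed by 5.37 (SE 0.73) and 5.34 (SE 0.79), MUC5AC by 4.32 (SE 0.74) and TFF1, the smallest of the 10, by 3.77 (SE 0.77, adjusted p = 0.00404). For ATP4A, ATP4B and CYM, whose duodenum held 1, 1 and 0 counts, the fitted value depends on a prior count and the ratio and bound above are the measure, with edgeR adjusted p of 2.10e-10, 3.75e-10 and 1.22e-05.

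The partners of acid secretion changed with the pump genes in the fit without goat 2. Of 16 listed partners, 15 had a row, 11 passed the filter, and 9 were higher and 0 lower in the abomasum, with a median log2 difference of 3.05 against -0.0016 over all features tested. The share of all features called higher was 3.71%. ESRRG, a nuclear receptor of parietal cells, rose by 7.67 (SE 0.58), with 42.5 to 65.6 CPM in the 5 abomasum libraries against 0 to 1.34 CPM in the 5 duodenum libraries. SLC26A7, an anion exchanger of the parietal cell's basal face, was at 8.54 to 21.6 CPM against 0 to 0.384 CPM and was called higher. Genes this low in the duodenum passed the filter only through their abomasum counts. Their direction is therefore not independent of passing it. KCNE2, a subunit of the potassium channel that recycles potassium to the pump, rose by 5.15 (SE 0.79). SLC26A9, a chloride channel of the gastric surface, rose by 4.99 (SE 0.81). KCNQ1 and AQP4 were tested and were not called.

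These partners moved in goat 2 as the pump genes did. Their summed level was 223 to 402 CPM in the abomasum and 50.0 to 107 CPM in the duodenum of the 5 goats, and in goat 2 it was 40.9 CPM under the abomasum label and 306 CPM under the duodenum label. ESRRG was at 0 counts in the library labelled abomasum of goat 2 and at 39.2 CPM in its library labelled duodenum.

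Few other chief cell genes were measurable. Of 8 listed zymogen and chief cell genes, 6 had a row and 3 passed the filter without goat 2. Of these 3, BHLHA15, a transcription factor of zymogen-storing cells, was the only gene called, 2.43 higher on the log2 scale (SE 0.67, adjusted p = 0.0309).

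The other surface and neck mucous genes were split in direction. Of 13 listed, 11 had a row and were tested without goat 2, and 7 were higher and 2 lower in the abomasum, with a median log2 difference of 1.53. The higher genes included CAPN8, a calpain of gastric pit cells, at 3.92 (SE 0.39), CA9, a carbonic anhydrase, at 2.74 (SE 0.36), and ANXA10, an annexin of the gastric lining, at 2.70 (SE 0.35). The lower genes were TFF2 at -2.27 (SE 0.63) and AGR2, a disulfide isomerase that folds mucins, at -1.55 (SE 0.46, adjusted p = 0.0496).

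Endocrine and regulatory genes of the foregut were fewer. GHRL, which encodes the hormone ghrelin, was the only one of 3 tested gastric endocrine genes that was called, 6.06 higher in the abomasum (SE 0.60). Among 7 tested transcription factors, GATA6 was 2.52 (SE 0.29) and FOXA2 2.44 (SE 0.64) higher, and HNF4A was 1.48 lower (log2 fold change -1.48, SE 0.31). The other 4 of the 7 were not called.

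Markers of other cell types differed between the 2 organs beside the gastric genes. Of 19 intestinal epithelium markers, 13 were tested without goat 2, and 11 were lower in the abomasum and 0 higher, where 3.99% of all features were called lower. Among the 11, APOA4 and RBP2 were at 0 counts in the 5 abomasum libraries and at 4.37 to 15.9 and 2.92 to 18.4 CPM in the duodenum. FABP1, a fatty acid carrier of enterocytes, was at 0 to 0.816 CPM against 12.8 to 80.4 CPM, and KRT20 differed by -6.89 on the log2 scale. APOA4, RBP2 and FABP1 passed the filter only through their duodenum counts, so their direction is not independent of passing it. The summed level of the intestinal list was 33.8 to 115 CPM in the abomasum and 363 to 674 CPM in the duodenum of the 5 goats. In goat 2 it was 35.8 CPM under the abomasum label and 90.0 CPM under the duodenum label. Of 7 tested smooth muscle markers, 4 were lower in the abomasum and 0 higher, led by ACTG2 at -3.93, with sums of 57.3 to 87.3 CPM against 91.7 to 526 CPM. In goat 2 the smooth muscle sum was 35.7 CPM under the abomasum label and 269 CPM under the duodenum label, the latter within the range of the duodenum and above that of the abomasum. The leukocyte marker PTPRC was 1.16 lower (log2 fold change -1.16), and the immune sums overlapped, at 170 to 1175 against 877 to 4845 CPM. In the library labelled duodenum of goat 2 the immune sum was 1518 CPM, also within the range of the duodenum and above that of the abomasum. Of 6 tested simple epithelium markers, CLDN7 and EPCAM were lower in the abomasum, and the sums of the list overlapped, at 197 to 374 against 302 to 397 CPM.

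Of 2 tested pancreatic acinar markers, PNLIPRP2 was called lower in the abomasum, at 0 to 0.816 CPM against 82.9 to 294 CPM, and CELA1 higher, at a log2 fold change of 2.67. The sum of that list was 13.6 to 26.0 CPM in the abomasum and 92.0 to 298 CPM in the duodenum. PNLIPRP2 passed the filter only through its duodenum counts. Of 4 tested squamous markers 0 were called. The part of these cell type differences in the result for the 10 genes was not tested. With all 6 goats, DES, a muscle filament gene, was the only gene of any list called between the abomasum and the duodenum, at -4.01 (adjusted p = 0.0417).

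**Figure D3:**
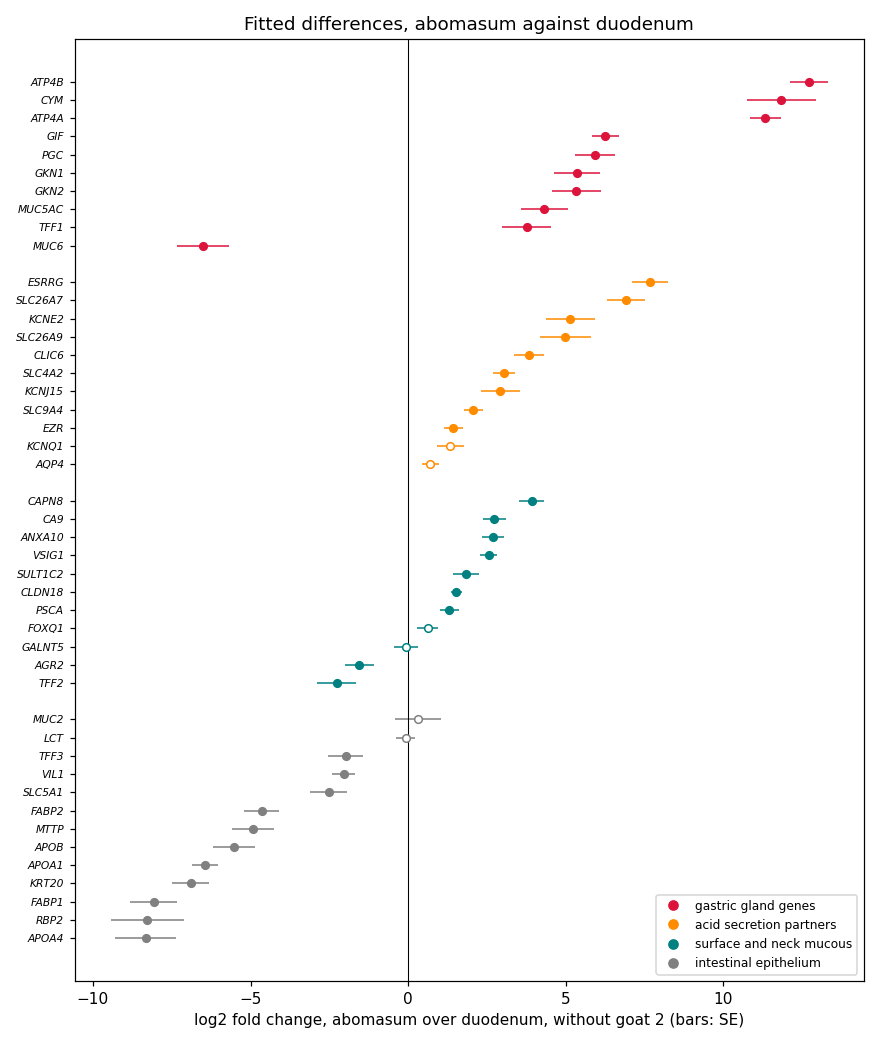
Fitted log2 fold changes of the abomasum over the duodenum without goat 2 (horizontal axis, bars are standard errors) for the 10 genes and 3 lists of genes, with filled points for edgeR adjusted p under 0.05 and open points otherwise. The 10 genes are all filled, with MUC6 at -6.50 as the only one to the left of 0, and TFF2 at -2.27 and AGR2 at -1.55 are the only mucous genes called to its left.

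The forestomach held nearly none of the products of gastric glands. ATP4B and CYM were at 0 counts in all 18 forestomach libraries, PGC had 1 count and GIF 2 counts in all of them together. TFF1 had 13, GKN1 7 and GKN2 15 counts in all. The reticulum library of goat 73 held 6 of the GKN1 counts and all 15 of the GKN2 counts. The omasum library of goat 54 held 7 of the TFF1 counts. MUC5AC was at 0 counts in 9 and MUC6 in 1 of the 18 forestomach libraries, with means of 0.683 and 2.26 CPM.

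ATP4A was the exception among the pump genes, at 0 counts in only 1 of the 18 forestomach libraries. The rumen library of goat 54 held 151 of its 260 counts. ATP4A stood between 0.192 and 2.8 CPM in the reticulum and between 0 and 1.07 CPM in the omasum, in part below 3 counts. In the rumen it stood at 35.9 CPM in goat 54 and between 1.19 and 3.54 CPM in the other 5 goats. In that rumen library, ATP4B, GIF, PGC and CYM were at 0 counts, KRT6A, a keratin of squamous epithelium, was at 42.8 CPM against 420 to 928 CPM in the other rumen libraries, and MYH11, smooth muscle myosin, was at 1402 CPM against 315 to 742 CPM. Its rank correlation was 0.823 with the reticulum and 0.818 with the rumen of the other goats. Whether these differences bear on ATP4A was not tested.

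Against the forestomach, all 10 genes were higher in the abomasum without goat 2. All 10 were tested and called by edgeR, where 9.39% of 20070 features were called higher. Each of the 10 other than MUC6 passed the filter only with its abomasum counts. Over the forestomach libraries, ATP4B, CYM, PGC, GIF, GKN1, TFF1 and GKN2 held 0, 0, 1, 2, 7, 13 and 15 counts. MUC5AC and ATP4A held 52 and 230 counts there, in too few libraries at the level the filter asks for. The calls of these 9 genes as higher are therefore not independent of passing the filter. The ratio was at least 10440-fold for ATP4B and at least 2463-fold for CYM, against 3 counts over the 15 forestomach libraries. It was 6363 for PGC (exact 95% interval 1141 to 251500) and 2788 for GIF (770 to 23040). The smallest fitted difference was that of MUC6, at 3.21 (SE 0.57, adjusted p = 0.000160), and MUC6 was the only one of the 10 whose CPM ranges overlapped between these groups. For the other 9 the abomasum was above, as for 2.74% of all features tested.

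With all 6 goats, the test of the abomasum against the forestomach covered only 4 of the 10 genes, because the other 6 failed the filter. The 4 genes were ATP4A at 6.35, GKN2 at 11.18, MUC5AC at 8.70 and MUC6 at 4.70 on the log2 scale, and all 4 were called higher, beside 10.3% of 19830 features. The count of 4 describes those tested and not the whole set. ATP4A, GKN2 and MUC5AC passed the filter only with their abomasum counts, so their calls are not independent of passing it. For GKN2 the only forestomach library with counts was the reticulum of goat 73, at 2.92 CPM. The ratio of pooled counts remained at least 10200-fold for ATP4B and at least 2405-fold for CYM with goat 2 in.

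The lists around the 10 genes bore the marks of the tissues on both sides. Without goat 2, 11 of 12 tested acid secretion partners and 10 of 11 surface and neck mucous genes were higher in the abomasum than in the forestomach, and 0 of either were lower. The share of all features called higher was 9.39%. Of 10 tested squamous markers 9 were lower in the abomasum, and all 8 smooth muscle markers were lower, where 10.9% of all features tested were called lower. KRT14, a keratin of the basal layer, was at 0 counts in the 5 abomasum libraries left and at 18.3 to 696 CPM in the forestomach, and KRT5 and KRT6A reached at most 0.486 CPM in the abomasum. Of 6 tested simple epithelium markers 4 were higher, among them KRT8 at 8.61 and KRT18 at 7.83.

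The duodenum was also compared with the forestomach, which it shares as reference with the comparison above. Without goat 2, MUC6 and MUC5AC were the only members that passed the filter. Both were called higher, at 9.74 (SE 0.44) and 4.67 (SE 0.78) on the log2 scale, beside 12.1% of 20502 features. With all 6 goats 3 members passed, MUC6 at 9.32, MUC5AC at 7.78 and ATP4A at 3.27, and all 3 were called, beside 13% of 20294 features. MUC5AC in either fit, and ATP4A with all 6 goats, passed only with their duodenum counts. These calls are therefore not independent of passing the filter. The call of ATP4A was lost with the goat as a block (log2 fold change 0.32, adjusted p = 0.896). Without goat 2 the duodenum held 1 count of ATP4A and the gene was not tested.

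With no filter on low counts and without goat 2, 9 members had a row in the comparison of the duodenum with the forestomach, and CYM had 0 counts on both sides. MUC5AC at 4.62, TFF1 at 6.79, GKN1 at 6.15, GKN2 at 6.10 and MUC6 at 9.68 were called higher in the duodenum, and so were PGC and GIF, beside 10.5% of 35192 features. The ratio of pooled counts was 122 for PGC (exact 95% interval 20.6 to 4949) and 42.9 for GIF (10.7 to 373). ATP4B was not called (adjusted p = 0.267). ATP4A was called lower in the duodenum, at -4.74 (SE 1.13, adjusted p = 0.00233), beside 8.23% of features called lower, and the forestomach mean included the rumen of goat 54. MUC6 was also the only one of the 10 whose duodenum and forestomach ranges did not overlap, with 5.43% of features having the duodenum above.

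The spread among the 5 abomasum libraries without goat 2 differed between genes. The coefficient of variation was 37.4% for GIF, 40.7% for ATP4B and 43.8% for ATP4A, the parietal cell genes. It was 44.6% for PGC, 54.9% for TFF1, 58.5% for GKN1 and 61.6% for GKN2. It was highest for CYM at 81.8%, MUC5AC at 83.5% and MUC6 at 99.0%. The ratio of the highest to the lowest library was 2.43 for GIF and 9.90 for CYM. For MUC6 the lowest library, that of goat 64, held 2 counts, and no ratio is given. Goat 73 had the lowest level of 8 of the 10 genes, and the exceptions were MUC5AC and MUC6, both lowest in goat 64. The abomasum library of goat 73 also had the lowest total of the 5, at 3.68 M counts. It had the fewest features other than lncRNAs with at least 10 counts, at 7946. Whether this bears on the levels was not tested.

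Ratios of counts between genes of a cell type varied less for some pairs than for others. The counts of GKN1 over those of GKN2 had ratios from 0.907 to 1.33 in the 5 abomasum libraries, 0.965 in the duodenum of goat 6 and 0.947 in the library labelled duodenum of goat 2. The ratio of ATP4B to ATP4A ran from 1.47 to 4.06, with 1.88 in that library of goat 2. The ratio of CYM to PGC ran from 0.271 in goat 54 to 2.12 in goat 6, and MUC5AC to TFF1 from 0.384 in goat 64 to 5.96 in goat 3. These ratios carry no correction for gene length, so only their change between libraries can be read.

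Lactation state was the remaining factor in the abomasum. With all 6 goats edgeR called 0 of 16061 features (0%) between 3 lactating and 3 dry goats, with 599 at an unadjusted p under 0.05, and DESeq2 called 28. None of the 10 genes were called by edgeR. Without goat 2, 2 lactating goats stood against 3 dry goats, and 0 of the 10 genes were called, beside 0.0515% of 17480 features. Of the genes in the other lists, only MUC2, a mucin among the intestinal markers, was called in that fit. It was higher in the lactating goats, at 4.08 on the log2 scale (SE 0.61, edgeR adjusted p = 0.02996). With all 6 goats MUC2 was at 3.54 (SE 1.10) and was not called. The lowest unadjusted p of the 10 was 0.0250 for MUC5AC, at a log2 fold change of 1.15 (SE 0.46, adjusted p = 0.841), and its level in goat 3 alone was above that of all dry goats, with goat 6 between them. CYM, the milk-clotting enzyme, stood at 153 ± 81.3 CPM (SD, n = 2) in lactating and 58.4 ± 61.0 CPM (SD, n = 3) in dry goats, with ranges that overlapped.

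PGC was the only one of the 10 whose lactating and dry ranges did not overlap without goat 2, at 119 and 99.3 CPM against 92.6, 77.3 and 22.3 CPM. Ranges with the lactating goats above were also found for 17% of all features tested. Its fitted difference was 0.52 (SE 0.47, adjusted p = 0.993). Lactation state cannot be told apart from other differences between these goats.

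Over all 33 tissues, 9 of the 10 genes had their highest mean in the abomasum and MUC6 in the duodenum, both with and without goat 2. Without goat 2 the ranges of the highest and the next tissue did not overlap for any of the 10. The same held for 4.74% of 31523 features with a tissue mean of at least 1 CPM. The next tissue was the duodenum for PGC, MUC5AC, TFF1, GKN1 and GKN2, the adenohypophysis for CYM, the rumen for ATP4A, the left ventricle of the heart for ATP4B, the thyroid for GIF and the pineal gland for MUC6. From the second tissue to the third the ranges overlapped for all 10. For MUC6 the abomasum came after the pineal gland and the cerebellar hemisphere, and these 3 overlapped.

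**Figure D4:**
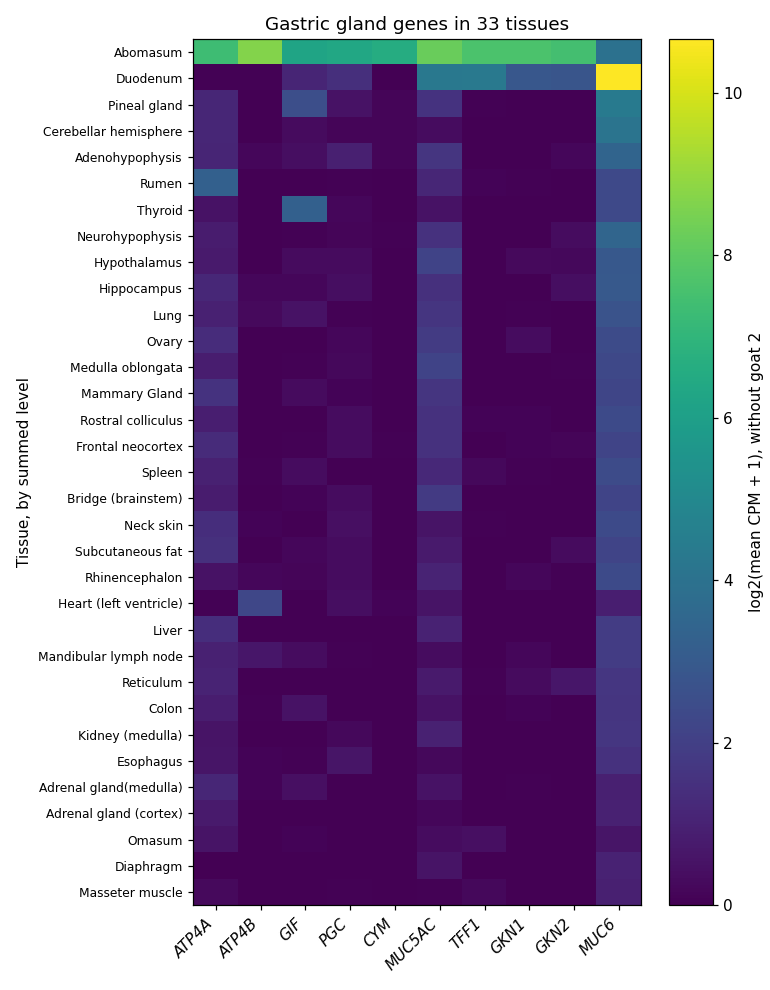
Heat map of the mean of each gene (columns) in the 33 tissues (rows, ordered by the summed level), coloured by log2(mean CPM + 1) without goat 2. The abomasum row is bright for 9 genes and the duodenum row for MUC6, and fainter cells outside the gut are GIF in the thyroid and pineal gland, ATP4B in the left ventricle and MUC6 in several brain tissues.

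Outside the abomasum and duodenum, 186 libraries remained. CYM was at 0 counts in 180 of them and at or above 1 CPM in 0. TFF1 and GKN1 reached 1 CPM in 1 library each, GKN2 in 4, ATP4B in 8, PGC in 9 and GIF in 17. ATP4A reached 1 CPM in 78, MUC5AC in 72 and MUC6 in 146 of the 186 libraries, and they were at 0 counts in 37, 56 and 11 of them.

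Some of these levels were gathered in single tissues. GIF stood at 0.257, 7.86, 5.01, 3.45, 6.67 and 20.3 CPM in the thyroid of goats 2, 3, 6, 54, 64 and 73, and was above the floor in all but goat 2. ATP4B stood at 1.99, 1.74, 1.47, 1.84, 5.67 and 8.36 CPM in the left ventricle of goats 2, 3, 6, 54, 64 and 73. The left ventricle was the only tissue in which all 6 libraries held ATP4B counts.

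MUC6 was found in the nervous system as well as the gut. In the cerebellar hemisphere it stood at 10.9, 6.10 and 5.79 CPM in the lactating goats 2, 3 and 6, and at 33.8, 17.0 and 19.5 CPM in the dry goats 54, 64 and 73. AP2A2, the neighbouring gene in the RefSeq annotation, was at 4.22, 13.8 and 12.9 CPM in the same libraries of the lactating goats and at 15.2, 11.1 and 8.91 CPM in those of the dry goats.

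The 3 libraries labelled pineal gland of the lactating goats went against their label. TPH1, the enzyme that opens the pineal path to serotonin and melatonin, stood at 124.5, 57.1 and 100.1 CPM in the dry goats 54, 64 and 73, and had 0, 0 and 2 counts in the libraries labelled pineal gland of goats 2, 3 and 6. ASMT, another enzyme of that path, stood at 19.7, 8.44 and 11.15 CPM in the dry goats and at 0, 0.835 and 0 CPM in goats 2, 3 and 6. AANAT, a further one, did not separate them, with 6, 0 and 0 counts in the dry goats and 0 in goats 2, 3 and 6. The 3 libraries labelled pineal gland of the lactating goats were nearest to the rhinencephalon or hypothalamus of the other goats, with rank correlations of 0.749 to 0.874. MUC6 stood at 31.8, 29.8 and 33.5 CPM in the pineal gland of the dry goats and at 2.21, 3.76 and 0.419 CPM in the 3 libraries labelled so of the lactating goats. GIF stood at 5.93, 7.69 and 10.7 CPM in the former and at 0.201, 0 and 0 CPM in the latter. No difference by lactation state is drawn from the pineal libraries. The thyroid, left ventricle and cerebellar libraries were each nearest to their own tissue. The tissues of these paragraphs were picked after their levels were seen, and no test was made of them.

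The tissue specificity score tau, which is 0 for a gene at the same level everywhere and 1 for a gene found in a single tissue, was computed over 33 tissue means. Without goat 2 it was 0.997 for CYM, 0.984 for ATP4B, 0.98 for GKN1, 0.978 for GKN2, 0.977 for TFF1 and 0.96 for PGC. It was 0.943 for GIF, 0.87 for ATP4A, 0.861 for MUC5AC and 0.79 for MUC6, the genes with low levels elsewhere. Over all 6 goats it ran from 0.784 for MUC6 to 0.977 for CYM. In the authors' deposited table tau is 1 for CYM, 0.9881 for ATP4B and 0.7929 for MUC6, which are likewise its highest and lowest values among the 10.

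The features whose levels followed the 10 genes most closely were sought by Pearson correlation of log2(CPM + 1) over all libraries of the atlas, goat 2 included, among features that are neither lncRNAs nor any of the 10 genes. These correlations describe tissues that share goats, and they rest mainly on the few libraries in which the genes are high. Some of the 10 were closer to each other than to any feature searched, such as GKN1 to GKN2 (r = 0.982) and to TFF1 (0.971). PAG-8, of the pregnancy-associated glycoproteins that are related to pepsin, was the nearest feature searched to CYM (r = 0.955), PGC (0.923), ATP4A (0.833) and GIF (0.82), with a mean of 102 CPM in the abomasum over 6 libraries. DPCR1, a mucin-like gene, was the nearest searched to GKN2 (0.941) and among the nearest 3 to GKN1 (0.945), TFF1 (0.927) and PGC (0.919). An unnamed locus, LOC102172792, was the nearest searched to MUC5AC (0.825), TFF1 (0.942) and GKN1 (0.949). PNLIPRP2 was among the nearest 3 to MUC6 (0.742), with a mean of 135 CPM in the duodenum. A search without goat 2, over 165 libraries, was added after the data were seen. In it PAG-8 was still first for ATP4A (0.828) and GIF (0.798), next after DPCR1 (0.922) for PGC (0.904), and behind LOC102186462 and LOC102172331 (both 0.948) for CYM (0.945). LOC102172792 was first for MUC5AC (0.817) and GKN1 (0.952) and level with LOC102172037 for TFF1 (both 0.941), DPCR1 was first for GKN2 (0.942), and PNLIPRP2 was no longer among the nearest 3 to MUC6.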

How the data were processed

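The data are total RNA libraries of 33 tissues from 6 goats, grouped by the tissue and state in their titles. Expected counts of each feature in each library come from the authors' table. Decimals occur in 37% of its values above 0, so values were rounded before fitting. STAR, StringTie and edgeR are named, without versions or roles, in the submitters' processing notes. A genome build is not given in the sources used. The authors also deposited tau, a fraction, and an annotation of lncRNAs, whose class (other, no measured value) was used only to sort features. Of the 39734 features 14511 are lncRNAs, and they took 83.7% to 88.7% of the counts in the abomasum and 82.5% to 84.9% in the duodenum, so a CPM of the library total is far below a CPM of other genes alone. The deposited table named for CPM was not used, since its columns do not sum to 1000000, nor the table named for gene length, which holds log offsets of each library. Whether reads were counted by strand is not stated. The RefSeq table of assembly ARS1.2 matched 10 of 10 members and gave names and neighbours only, and no member overlaps another gene in it. No sequence is printed.

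CPM was computed here per library total, which ran from 1.31 to 8.97 M counts (median 4.63 M). Fits used edgeR 4.0.16 (R 4.3.3) on the rounded counts of the compared tissues only, with filterByExpr (minimum count 10), TMM scaling and a two-sided quasi-likelihood test adjusted by Benjamini-Hochberg over all features tested, at 0.05. The forestomach was the mean of its 3 compartments. A standard error is the fold change divided by the square root of F. Alternatives were RLE scaling, no filter, DESeq2 1.42.0, lncRNAs left out, each goat left out and the goat as a block. Further alternatives, goat 2 left out together with the block or with no filter, were chosen after seeing the data. The main fits had no block, although libraries with the same number come from the same goat. The correlation of deviations from the tissue means between the abomasum and duodenum of a goat was -0.313 in goat 2 and 0.00101 to 0.192 in the others. The fitting was tested on simulated data. Levels, tau and correlations were computed with Python 3.11.15, pandas 2.3.3 and scipy 1.17.1.

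The members and gene lists were chosen with earlier results of these data known. The genes named are all 10 members and, of each list, up to 4 genes called between the abomasum and duodenum with the largest change. For squamous markers the comparison with the forestomach was used, and for lactation state that of lactating and dry abomasum. The 3 features most correlated with each member, among those whose mean reached 1 CPM in a tissue, are named too. TFF2, AGR2, EPCAM, KCNQ1, AQP4, KRT8, KRT18, GAST, PDX1, TPH1, ASMT, AANAT and AP2A2 are named outside this rule, after their values were seen. Of the listed genes, CA2, LIPF, PGA5, GKN3, CAPN9 and 8 others had no row under these symbols.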

Additional observations from a re-analysis of the deposited data

Results flagged for a closer look

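A value is given here where, among the 6 libraries of a tissue, the gap from the highest or lowest library to the next exceeded the critical share of the range at which chance marks about 1 group in 20. Of 79 groups of gene and tissue with a mean of at least 1 CPM, 19 were marked, and 9 of these were the library labelled duodenum of goat 2, which stood far above the other 5. Its levels were 258 CPM for PGC, 97.3 CPM for CYM, 118 CPM for ATP4A, 223 CPM for ATP4B, 75.6 CPM for GIF, 882 CPM for MUC5AC, 244 CPM for TFF1, 404 CPM for GKN1 and 427 CPM for GKN2. MUC6 stood apart at 235 CPM in the library labelled abomasum of the same goat. The mean that admits a group includes the library that stands apart. CYM, ATP4A and ATP4B in the duodenum were admitted only through goat 2, with at most 0, 0.219 and 0.219 CPM in the other goats. The 19 of 79 groups therefore cannot be set against 1 group in 20.

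ATP4A stood apart at 35.9 CPM in the rumen of goat 54 and at 5.97 CPM in the subcutaneous fat of goat 73. MUC5AC did so at 7.99 CPM in the adenohypophysis and 5.35 CPM in the hippocampus of goat 64, and at 6.47 CPM in the lung of goat 3. MUC6 did so at 3.66 CPM in the adrenal cortex of goat 6, 4.44 CPM in the esophagus of goat 64, 8.9 CPM in the rumen of goat 3 and 9.64 CPM in the thyroid of goat 3.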

How the results depend on the processing

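Between the abomasum and the duodenum, 6 features were called with all goats. The count was 1 with RLE scaling, 131 with no filter, 210 with DESeq2 and 38 without lncRNAs, and it ran from 0 to 1290 when each goat was left out in turn, with 1290 without goat 2 and 0 without any other goat. With the goat as a block it was 1, with the block and without goat 2 it was 1503, and with no filter and without goat 2 it was 1739. Against the forestomach, leaving out lncRNAs, which tests fewer features, took the abomasum from 4469 to 2619 calls and the duodenum from 5460 to 3285, and the other settings stayed within 1.5 times. The block changed no call of a member other than that of ATP4A between the duodenum and forestomach, and with no filter and without goat 2 ATP4A reversed there to -4.74. Between lactating and dry goats, 0 calls became 19 with no filter and 28 with DESeq2, and ran from 0 to 9 on leaving out each goat. No paired analysis was possible because the 2 states hold different goats. The log2 fold changes of uncalled members that changed sign there on leaving out each goat ran from -0.71 to 0.52 for PGC, -0.998 to 0.47 for ATP4A, -1.40 to 0.17 for GIF, -1.17 to 1.15 for MUC5AC and -0.51 to 1.95 for CYM. The count of 9 members highest in the abomasum was 8 without goat 3, when MUC5AC was highest in the duodenum, and 9 in the other settings. The causes were not tested. Depth limits levels under 3 counts, which is 0.335 to 2.29 CPM over all libraries.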

Other observations

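MUC5AC was found in the ovary at 9.25, 9.30 and 1.97 CPM in the lactating goats 2, 3 and 6, and at 1.44, 0.173 and 0.417 CPM in the dry goats 54, 64 and 73. The difference was not tested. GAST, the gene of the hormone gastrin, which endocrine cells of the distal stomach release, was at 0 counts in all 6 abomasum libraries. GHRL was found in the 5 abomasum libraries without goat 2 at 15.0, 34.1, 17.6, 40.4 and 5.44 CPM in goats 3, 6, 54, 64 and 73. It was at 0 counts in the library labelled abomasum of goat 2 and at 14.4 CPM in its library labelled duodenum. PDX1, a transcription factor of the duodenum and pancreas, was at 2.37 to 4.67 CPM in the duodenum of goats 3, 6, 54, 73 and at 1.98 CPM in goat 64. In goat 2 it was at 2.73 CPM in the library labelled abomasum and at 0.253 CPM in the library labelled duodenum.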
